A study of Mus musculus with 15 samples.

Results

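Genes that hold cells to each other and to their matrix were followed in mouse ovaries with 2, 1 or no functional copies of Foxl2. They are the cadherins, desmosomal cadherins, claudins, zonula occludens proteins, connexins, integrin chains and keratins, picked out by gene symbol, with no measured value in the rule. Of 12254 named genes on the arrays, 105 matched: 13 cadherins, 6 desmosomal cadherins, 18 claudins, 3 zonula occludens proteins, 16 connexins, 10 integrin alpha chains, 6 integrin beta chains, 28 keratins and 5 genes that share only the stem of such a name. Each gene is given by its brightest probe, as the log2 ratio of ovary over a universal mouse reference RNA, so that values can be set side by side between arrays but not between genes.

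Whole female ovaries were profiled at 2 ages that the series places around follicle formation. Newborn ovaries gave 3 arrays each of Foxl2-/- (knock-out, here null), Foxl2+/- (heterozygous) and Foxl2+/+ (wild-type) mice, and ovaries at 7 dpn (7 days post-natum) gave 2 arrays each of the same genotypes. The labels give the strain as NIHS-BC and no other allele or treatment, and the methods describe a mixed background. Per the methods, RNA for the 7 dpn arrays was pooled from several mice, so that each of these arrays stands for a pool. The statistical fit takes 1 estimate of spread per probe from the arrays of both ages. The p-values at 7 dpn therefore draw on the spread between newborn arrays as well as between pools. The labels conflict on the older samples: their titles and stage put them at 1 week, which was used, but their recorded age is that of newborns. Every sample, wild-type included, is also tagged as a gene knock-out, and genotype was taken from the titles.

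Gap junction channels are built from connexins and let small molecules pass between neighbouring cells; in the follicle they join granulosa cells to each other and to the oocyte. Classical cadherins link cells at adherens junctions, and desmosomal cadherins do so at desmosomes, where plakophilins and plakins tie them to keratin filaments. Claudins seal tight junctions, for which the zonula occludens proteins form the scaffold inside the membrane. Integrins are dimers of an alpha and a beta chain that bind the extracellular matrix, and keratins form filaments from a type I and a type II chain.

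The ovary signal stood well above background on all 15 arrays for 96 of the 105 genes, on some arrays for 6 and on none for 3 (Dsg1a, Dsg1b and Itga4). The log2 ratio spanned less than 0.5 over the 15 arrays for 50 of them, with a median span of 0.51. The Foxl2 probe lay between -0.36 and -0.20 on all arrays and did not separate the genotypes (limma adjusted p = 0.56 at 7 dpn and 0.83 in newborns), so the genotypes rest on the labels. Newborn wild-type array 1 stood apart, with a standard deviation of 0.23 around its group mean over all probes against 0.14 to 0.18 for the other newborn arrays, and its granulosa markers averaged 1.31 against 0.72 and 0.95 on the other 2 wild-type arrays. The newborn and age counts of called genes are given with and without it. It also enters the shared estimate of spread for comparisons within 7 dpn, which are not given without it. The software that read the scans ran on 1 day for all newborn arrays and on another for all 7 dpn arrays, so age and day of extraction cannot be told apart, while comparisons within an age lie within a day.

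Promoter sequences of 4 of the genes that moved most are shown because the text returns to them, as the 250 bases before the annotated start in RefSeq (GRCm38.p6), 5′ to 3′ on the strand of the gene. They are Gja1 at chr10:56377050-56377299 (+ strand), Krt18 at chr15:102027966-102028215 (+ strand), Krt20 at chr11:99438154-99438403 (- strand) and Cdh15 at chr8:122848124-122848373 (+ strand). Capitals mark matches on either strand to any of 5 motifs. The forkhead site was searched as GTAAACA. The AP-1 site was searched as TGANTCA, where N is any base. The SF-1 half-site was searched as AAGGTCA, the GC box as GGGCGG and the TATA box as TATAAA.
Gja1: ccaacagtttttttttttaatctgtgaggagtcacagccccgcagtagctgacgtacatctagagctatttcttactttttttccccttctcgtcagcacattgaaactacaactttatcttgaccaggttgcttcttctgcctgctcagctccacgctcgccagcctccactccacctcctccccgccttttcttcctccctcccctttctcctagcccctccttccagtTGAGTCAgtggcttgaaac
Krt18: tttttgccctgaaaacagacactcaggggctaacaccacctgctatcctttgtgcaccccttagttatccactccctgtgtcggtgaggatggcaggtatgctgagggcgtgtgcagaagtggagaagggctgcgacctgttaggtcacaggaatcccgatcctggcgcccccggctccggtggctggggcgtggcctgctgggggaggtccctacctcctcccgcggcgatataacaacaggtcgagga
Krt20: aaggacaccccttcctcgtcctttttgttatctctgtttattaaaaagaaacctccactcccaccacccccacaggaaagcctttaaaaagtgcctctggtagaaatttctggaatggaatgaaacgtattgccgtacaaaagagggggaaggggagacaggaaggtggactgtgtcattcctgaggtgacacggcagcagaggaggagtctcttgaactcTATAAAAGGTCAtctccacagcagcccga
Cdh15: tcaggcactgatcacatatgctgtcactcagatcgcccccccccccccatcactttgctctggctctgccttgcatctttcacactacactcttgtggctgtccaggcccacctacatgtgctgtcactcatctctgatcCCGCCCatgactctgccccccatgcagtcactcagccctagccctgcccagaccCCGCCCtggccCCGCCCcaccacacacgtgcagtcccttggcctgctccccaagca
The Gja1 window held 1 AP-1 match, 19 bases before the start, a motif found in 6.75% of the 32851 mouse promoter windows of this length. The Krt20 window held a TATA box 29 bases and an SF-1 half-site 24 bases before the start, which overlap by 1 base; these motifs are in 12.4% and 4.08% of all windows. The Cdh15 window held 3 GC boxes on the opposite strand (32.7% of all windows hold 1 or more), and the Krt18 window held none of the 5 motifs. None of the 4 windows held the forkhead letters, which 3.17% of all windows hold. A match is a description of the letters, and the expression values below do not test it.

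At 7 dpn, 11 of the 105 genes differed between Foxl2-/- and wild-type ovaries, 5 higher and 6 lower. Over all probes, 2.77% were called higher and 2.76% lower, and 8.63% of named genes were called in either direction, so the share of 10.5% among the junction genes lies near that of named genes in general. The median log2 change of the 105 genes was 0.02, the same as over all named genes. The genes that fell were Gja1, Krt84, Cdh1, Cldn5, Itga9 and Cdh11, and those that rose were Cdh15, Dsc2, Krt20, Krt18 and Itga2b. With the ovary channel alone, without the reference, 6 of the 11 were lost: Cdh15 (1.09, adjusted p = 0.12), Itga2b (0.33, 0.39), Krt84 (-0.41, 0.56), Cdh1 (-0.25, 0.82), Cldn5 (-0.24, 0.50) and Cdh11 (-0.55, 0.086). Whole ovaries were measured, so fewer cells of a type and less RNA per cell cannot be told apart.

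**Figure D1:**
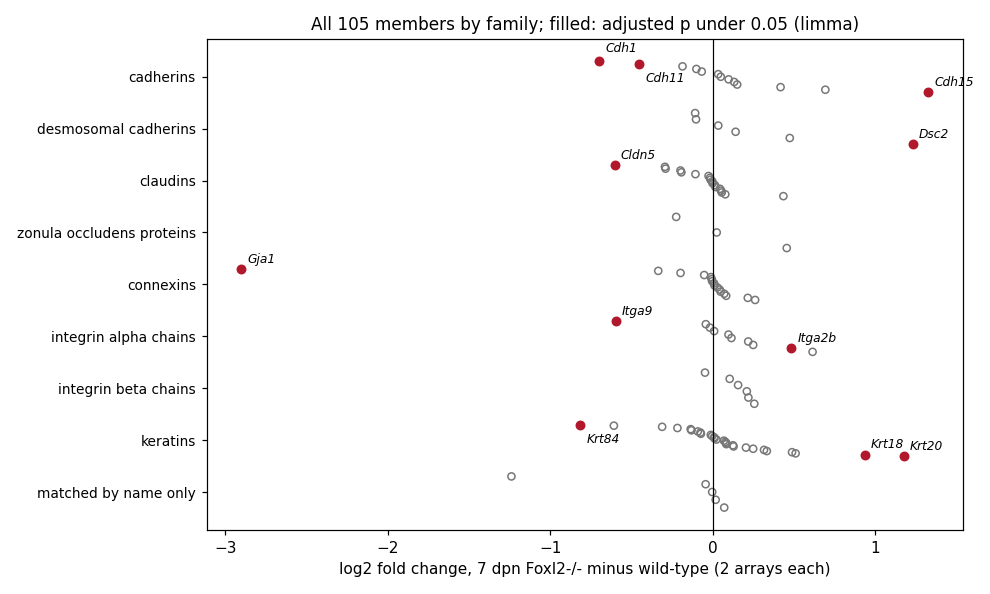
Log2 fold change of Foxl2-/- over wild-type ovaries at 7 dpn (x axis, 2 arrays a group) for all 105 genes, 1 row of points per family. Filled points are the 11 genes with a limma adjusted p under 0.05; Gja1 lies at -2.90 and Cdh15 at 1.33, while most other genes lie close to 0.

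Gja1, which encodes connexin 43, the main gap junction protein between granulosa cells, changed most of all. Its log2 ratio was 1.48 and 1.36 on the wild-type 7 dpn arrays, 0.32 and 0.64 on the heterozygous arrays, and -1.38 and -1.59 on the null arrays. The 3 genotypes did not overlap. The null ovaries were 7.49-fold lower than wild-type (log2 change -2.90 ± 0.42, SE, adjusted p = 0.0027) and 3.90-fold lower than heterozygous ovaries (-1.96 ± 0.42, adjusted p = 0.039). The heterozygous change against wild-type, -0.94, did not pass (adjusted p = 0.58). These SEs include the spread from newborn wild-type array 1, on which Gja1 stood apart from the other newborn arrays. Without that array the SE of the wild-type age change of Gja1 was 0.15. How far the missed heterozygous call depends on that array was not tested. The null change passed without any 1 of the 4 arrays (-3.01 to -2.80), but the change against heterozygous ovaries was lost without any 1 of its 4 arrays (-2.12 to -1.80).

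No other connexin of the 16 was called between null and wild-type at 7 dpn. Gja4 (connexin 37), the connexin of oocyte and endothelial gap junctions, lay between 0.56 and 1.39 over all arrays, with 0.92 and 1.29 in the 7 dpn null ovaries against 1.13 and 1.10 in wild-type. Gjc1 (connexin 45) measured 0.18 and 0.03 against 0.31 and 0.30 (-0.20, adjusted p = 0.20). Gja5 (connexin 40) and Gjb2 (connexin 26) spanned 0.24 and 0.12 over the 15 arrays. Granulosa markers moved with Gja1: 6 of 10 fell and 1 (Nr0b1) rose in 7 dpn null ovaries, and their mean log2 ratio was 0.69 to 0.77 in null against 1.64 to 1.94 in wild-type and 1.02 to 1.12 in heterozygous ovaries. The part of these markers in the change of Gja1 was not tested.

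**Figure D2:**
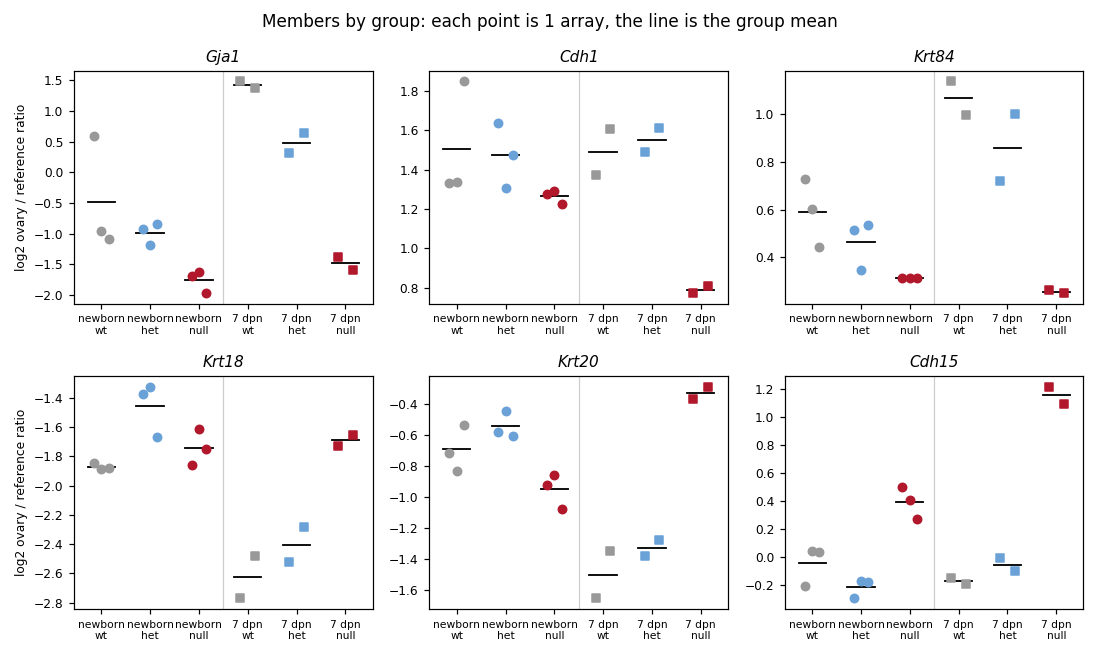
Log2 ratio of ovary over reference (y axis, a scale of its own in each panel) of 6 genes in the 6 groups (wt, wild-type; het, heterozygous); each point is 1 array and each line a group mean, with newborn arrays on the left and 7 dpn arrays on the right. The null 7 dpn arrays lie below both other 7 dpn groups for Gja1, Cdh1 and Krt84, and above them for Krt18, Krt20 and Cdh15.

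Among the 13 cadherins, Cdh15 rose and Cdh1 and Cdh11 fell in 7 dpn null ovaries. Cdh15 is M-cadherin, known from muscle precursors. It measured 1.22 and 1.09 in the null ovaries against -0.15 and -0.19 in wild-type and -0.01 and -0.10 in heterozygous ovaries. Null ovaries lay clear of both, 2.51-fold above wild-type (1.33 ± 0.10, adjusted p = 5.1e-05) and 2.31-fold above heterozygous ovaries (1.21 ± 0.10, adjusted p = 1.8e-04), and both changes passed without any 1 array. None of the 5 measured muscle markers was called, none reached an unadjusted p under 0.05 in limma, and their mean was -0.23 to -0.10 in null and -0.24 to -0.14 in wild-type ovaries. Other marker lists differed between null and wild-type ovaries at this age, as given below. The part of any marker list in the 7 dpn change of Cdh15 was not tested.

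Cdh1, E-cadherin of epithelial cells and oocytes, measured 0.77 and 0.81 in 7 dpn null ovaries, 1.49 and 1.61 in heterozygous and 1.38 and 1.61 in wild-type ovaries. The null arrays lay below the other 4, which overlapped (null against wild-type -0.70 ± 0.16, adjusted p = 0.029; null against heterozygous -0.76 ± 0.16, adjusted p = 0.035). The call against wild-type was lost without null array 1 (-0.68, adjusted p = 0.14), null array 2 (-0.72, 0.14) or wild-type array 2 (-0.59, 0.17), and that against heterozygous ovaries was lost without any 1 of its 4 arrays. Cdh11, a cadherin of mesenchymal cells, measured 0.78 and 0.68 in null, 0.56 and 0.60 in heterozygous and 1.00 and 1.37 in wild-type ovaries. Its fall (-0.45 ± 0.12, adjusted p = 0.046) passed only without wild-type array 1 (-0.64), and fell short without null array 1, null array 2 or wild-type array 2 (-0.51, -0.40 and -0.27, adjusted p = 0.12 to 0.27).

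Cdh2 (N-cadherin), which joins granulosa cells, measured 0.47 and 0.48 in null against 0.75 and 0.35 in wild-type ovaries at 7 dpn. Cdh5 (VE-cadherin of endothelium) lay between -0.24 and 0.03 over all 15 arrays. Of 12 oocyte markers 11 could be tested, of which Bmp15 and Oosp1 were called lower in 7 dpn null ovaries, and the mean over the 9 with a value on all 15 arrays was 3.01 to 3.15 in null, 3.44 to 3.55 in heterozygous and 3.63 to 3.64 in wild-type ovaries. The part of the oocyte markers in the change of Cdh1 was not tested.

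Of the 6 desmosomal cadherins, Dsc2 (desmocollin 2, the widespread form) rose. It measured 4.22 and 4.37 in 7 dpn null ovaries, 3.05 and 2.91 in heterozygous and 3.45 and 2.68 in wild-type ovaries. Both null arrays lay above all others of that age, 2.35-fold above wild-type (1.23 ± 0.27, adjusted p = 0.023) and 2.49-fold above heterozygous ovaries (1.32 ± 0.27, adjusted p = 0.029). The call against wild-type was lost without null array 1 (1.31, adjusted p = 0.089), null array 2 (1.15, 0.16) or wild-type array 2 (0.85, 0.15), and that against heterozygous ovaries without any 1 of its 4 arrays. Dsg1a and Dsg1b were not well above background on any array, and Dsc1, Dsc3 and Dsg4 were not called.

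The desmosome and junction genes outside these families were read from a list of 66 partners, of which 46 had a named probe. In 7 dpn null ovaries 5 of the 46 rose and 3 fell, 17.4% of the list against 8.63% of all named genes and 5.53% of all probes. Unlike those of the 105 genes, these calls were not tried at 7 dpn with an array left out or under other settings. Pkp1 and Pkp2 (plakophilins) and Ppl (periplakin), which bind the inner face of desmosomes, were the 3 called among 12 catenins and plakins. Pkp1 measured 0.64 and 0.89 in null ovaries against -1.57 and -1.03 in wild-type and -1.43 and -1.41 in heterozygous ovaries, and was 4.18-fold above wild-type (2.06 ± 0.21, adjusted p = 3.4e-04). Pkp2 (0.72, adjusted p = 0.0023) and Ppl (0.71, adjusted p = 4.8e-04) rose less. Jup (plakoglobin) and Ctnnb1 (beta-catenin) measured -0.03 and 0.03 and -0.39 and -0.28 in null ovaries, against -0.06 and -0.01 and -0.32 and -0.22 in wild-type ovaries.

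Nectin2, an adhesion molecule of adherens junctions, also rose (0.77, adjusted p = 0.0026), as did Ocln, the tight junction protein occludin (0.76, adjusted p = 0.0019). The partners that fell were Synm, the intermediate filament protein synemin (-1.77, adjusted p = 0.0043), and the integrin adaptors Fermt2 (kindlin 2, -0.26, adjusted p = 0.025) and Zyx (zyxin, -0.37, adjusted p = 0.019). Synm measured 0.47 and 0.48 in null ovaries against 2.24 and 2.25 in wild-type, with heterozygous ovaries at 1.57 and 1.67. Some epithelial markers rose on the same arrays as Dsc2 and the partners that rose. Epcam and Pax8 rose by 1.11 and 0.41 among 5 tubal or mesonephric markers, and Lor rose among 4 keratinocyte markers. The mean of 4 mesothelial or surface epithelial markers was 1.19 to 1.38 in null against 0.80 to 0.91 in wild-type ovaries, with none of the 4 called. Each of these lists also held 1 marker that was lower without being called, at -0.32, -0.19 and -0.07 in the order given. The part of these markers in the values of Dsc2 and the partners was not tested.

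**Figure D3:**
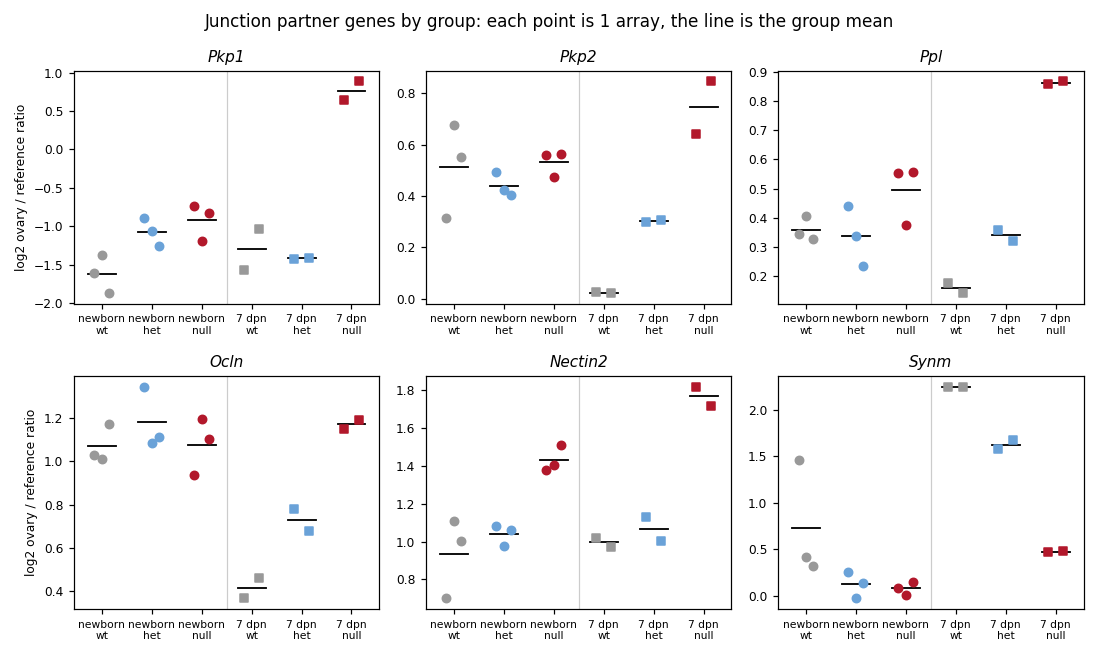
Log2 ratio of ovary over reference (y axis, a scale of its own in each panel) of 6 junction partner genes in the 6 groups (wt, wild-type; het, heterozygous); each point is 1 array and each line a group mean. Pkp1, Pkp2, Ppl, Ocln and Nectin2 are higher and Synm is lower on both null 7 dpn arrays than on both wild-type 7 dpn arrays.

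Of the 18 claudins, only Cldn5, the claudin of endothelial tight junctions, was called between null and wild-type at 7 dpn. It measured 1.04 and 1.53 in null, 1.33 and 1.34 in heterozygous and 1.75 and 2.03 in wild-type ovaries. Null and heterozygous arrays overlapped, and the fall against wild-type (-0.60 ± 0.16) stood at the threshold (adjusted p = 0.0498). It was lost without null array 1 (-0.36, adjusted p = 0.32), wild-type array 1 (-0.75, 0.056) or wild-type array 2 (-0.46, 0.26). Of 5 endothelial markers, Emcn and Flt1 fell as well, and the mean of the 5 was 0.96 to 1.07 in null against 1.56 to 1.79 in wild-type ovaries. The part of these markers in the value of Cldn5 was not tested.

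Cldn11, a claudin of Sertoli cell tight junctions, measured 2.54 and 2.96 in 7 dpn null ovaries and 2.84 and 1.79 in wild-type, and the groups overlapped (0.43, adjusted p = 0.70). Of 5 Sertoli markers, Sox9, Cst9 and Fgf9 rose at this age, and the mean of the 5 was 1.38 to 1.47 in null against 0.43 to 0.64 in wild-type ovaries. Their part in the value of Cldn11 was not tested. Cldn3, an epithelial claudin, measured -0.57 and -0.65 against -0.53 and -0.11 (-0.29, adjusted p = 0.40), and Cldn12 lay between -0.45 and -0.15 over all arrays. None of the zonula occludens genes was called by limma, with 1 of 3 at an unadjusted p under 0.05. Tjp1 measured 0.84 and 0.72 in null ovaries against 1.01 and 1.00 in wild-type (-0.23, adjusted p = 0.15).

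Of the 10 integrin alpha chains, Itga9 fell and Itga2b rose in 7 dpn null ovaries. Itga9, which pairs with the beta 1 chain, measured 3.77 and 3.50 in null, 4.06 and 3.91 in heterozygous and 4.10 and 4.37 in wild-type ovaries. Null lay below wild-type on all 4 arrays compared (-0.60 ± 0.12, adjusted p = 0.013), but the call was lost without null array 2 (-0.46, adjusted p = 0.13) or wild-type array 2 (-0.46, adjusted p = 0.094). A second, dimmer Itga9 probe gave -0.58 (adjusted p = 0.67).

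Itga2b, the alpha IIb chain of platelets and megakaryocytes, measured -0.03 and -0.08 in null ovaries against -0.36 and -0.33 in heterozygous and -0.49 and -0.59 in wild-type ovaries. The rise was 1.40-fold (0.48 ± 0.08, adjusted p = 0.0045), passed without any 1 array, and a second probe gave 0.54 (adjusted p = 0.0034). Its dimer partner Itgb3 measured -0.17 and -0.28 in null and -0.10 and -0.25 in wild-type ovaries. None of the 6 integrin beta chains was called by limma, and none reached an unadjusted p under 0.05. Itgb5 measured 0.10 and 0.23 against -0.21 and 0.10 (0.22, adjusted p = 0.30). Of the junction genes sought for their textbook roles, Itga6, Itgav, Itgb1, Itgb4, Itga8, Cldn1 and Dsg2 had no named probe here.

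Of the 28 keratins, Krt20 and Krt18 rose and Krt84 fell in 7 dpn null ovaries. Krt20, a type I keratin of intestinal and urothelial epithelium, measured -0.37 and -0.29 in null ovaries against -1.38 and -1.28 in heterozygous and -1.65 and -1.35 in wild-type ovaries. Null ovaries lay 2.26-fold above wild-type (1.17 ± 0.12, adjusted p = 3.1e-04) and 2.01-fold above heterozygous ovaries (1.00 ± 0.12, adjusted p = 0.0016), and both calls passed without any 1 array. Krt18, the type I keratin of simple epithelia, measured -1.73 and -1.65 in null, -2.52 and -2.28 in heterozygous and -2.77 and -2.48 in wild-type ovaries. Its rise against wild-type was 1.91-fold (0.94 ± 0.13, adjusted p = 0.0022) and passed without any 1 array, and a second probe gave a like change of 0.92 (adjusted p = 0.053). The rise against heterozygous ovaries (0.71, adjusted p = 0.018) was lost without null array 1, null array 2 or heterozygous array 1.

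Krt8, the type II partner of Krt18, measured -2.21 and -1.90 in null and -2.67 and -2.10 in wild-type ovaries, and the groups overlapped (0.33, adjusted p = 0.65). Krt19, a simple type I keratin, measured 0.13 and 0.12 against -0.18 and -0.08 (0.25, adjusted p = 0.45). Krt7, a type II keratin of simple ducts and of mesothelium, gave 0.32 (adjusted p = 0.12) from its brightest probe and 0.78 (adjusted p = 0.020) from a second probe, so its call depends on the probe. The basal keratins Krt5 and Krt14 lay between -0.05 and 0.12 and between -0.64 and -0.17 over all arrays.

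Krt84, a type II hair keratin, measured 0.26 and 0.25 in null, 0.72 and 1.00 in heterozygous and 1.14 and 1.00 in wild-type ovaries. It fell by 0.81 on the log2 scale (adjusted p = 0.0017) and passed without any 1 array, but a second probe of the gene gave -0.06 (adjusted p = 0.79), so that the 2 probes disagree. Of the epithelial markers given above, the mean of the 5 tubal or mesonephric ones was 0.74 to 0.75 in null against 0.26 to 0.57 in wild-type ovaries. Of the 4 mesothelial or surface epithelial markers, 3 reached an unadjusted p under 0.05 in limma. The part of these markers in the values of the 3 called keratins was not tested. Of the remaining lists, 3 of 5 theca markers fell, and none of 7 leukocyte or 2 erythroid markers was called by limma or reached an unadjusted p under 0.05.

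With all arrays in the fit, loss of 1 copy of Foxl2 moved none of the 105 genes past the threshold at 7 dpn. By limma 0 were called and 8 had an unadjusted p under 0.05, with 0.0463% of all probes called. Against heterozygous ovaries, 7 of the 105 were called in null ovaries, 4 higher and 3 lower, against 1.04% and 1.15% of all probes. In either direction these were 6.67% of the 105 and 3.25% of all named genes. They were Gja1, Cdh1, Krt84, Krt18, Krt20, Cdh15 and Dsc2, all of which were also called against wild-type. The count of called genes was 2 with the ovary channel alone and 4 with median centring. Cdh15 and Krt20 passed without any 1 of the 4 arrays, and Krt84 (-0.61) was lost without null array 1, null array 2 or heterozygous array 2. The second Krt84 probe gave -0.03 here (adjusted p = 0.97). Against heterozygous ovaries, 2 of 11 oocyte and 1 of 5 theca and steroidogenic markers were called lower in null ovaries. Called higher were 2 of 5 Sertoli, 1 of 5 tubal or mesonephric and 1 of 4 keratinocyte markers. Of 10 granulosa markers 1 was higher and 1 lower, and the remaining lists held no call. The part of these markers in the changes of the 7 genes was not tested. Among the 11 genes called between null and wild-type, the heterozygous mean lay between the other 2 means for 8, the exceptions being Cdh1, Dsc2 and Cdh11. It lay between them for 45 of all 105 genes. The 11 were picked by their gap between null and wild-type, so these shares cannot be compared.

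In newborn ovaries, Cdh15 was the only one of the 105 genes called between null and wild-type, 1 higher and 0 lower, against 1.05% of all probes higher and 0.622% lower, and 2.54% of all named genes in either direction. It measured 0.50, 0.41 and 0.27 in null, -0.30, -0.17 and -0.18 in heterozygous and -0.21, 0.04 and 0.03 in wild-type ovaries. All 3 null arrays lay above the other 6 newborn arrays, by 0.44 ± 0.08 against wild-type (adjusted p = 0.022) and 0.61 ± 0.08 against heterozygous ovaries (adjusted p = 0.012). The call against wild-type was lost without null array 1 or null array 2, where the change was 0.38 and 0.43. It was also lost in a fit of the newborn arrays alone (adjusted p = 0.077) and with the ovary channel alone (0.69, adjusted p = 0.49), as was the call against heterozygous ovaries (adjusted p = 0.065 and 1.00). Cdh15 was also the only gene called between null and heterozygous ovaries, against 0.398% of all probes, and that call was lost without null array 1, null array 2, heterozygous array 1 or heterozygous array 3. Among the 46 partner genes, Nectin2 (0.49, adjusted p = 0.022) and Vim, which encodes the intermediate filament protein vimentin (0.47, adjusted p = 0.012), rose in null against wild-type newborns, and without newborn wild-type array 1 the changes were 0.37 ± 0.06 (adjusted p = 0.0079) and 0.55 ± 0.06 (adjusted p = 0.0018). Of 5 Sertoli markers Sox9 (0.76) and Cst9 (1.65) rose in null against wild-type newborns, and the mean of the list was 0.88 to 1.02 in null and 0.06 to 0.35 in wild-type ovaries. Of 10 granulosa markers Fst fell (-1.33) and Nr0b1 rose (1.34), with list means of 0.54 to 0.61 in null and 0.72 to 1.31 in wild-type newborns. Of 5 theca and steroidogenic markers Hsd3b1 fell (-2.46), with list means of -0.21 to 0.38 and 0.56 to 1.18. Of 4 keratinocyte markers Lor rose (1.07), and the mean over the 3 with a value on all arrays was 0.42 to 0.70 in null and 0.14 to 0.28 in wild-type newborns. Of 5 tubal or mesonephric epithelial markers 0 were called (3 at an unadjusted p under 0.05 in limma), but their mean, 0.69 to 0.77 in null and 0.25 to 0.45 in wild-type newborns, did not overlap. Nor did that of the oocyte markers, of which 0 of 12 were called (5 at an unadjusted p under 0.05 in limma), at 2.92 to 3.06 in null and 3.22 to 3.34 in wild-type newborns. Of 5 muscle markers 0 were called (1 at an unadjusted p under 0.05 in limma). Their mean was -0.52 to -0.26 in null and -0.60 to 0.93 in wild-type newborns. The part of these markers in the newborn change of Cdh15 was not tested. None of the 105 genes was called between heterozygous and wild-type newborns (0 called by limma, 12 at an unadjusted p under 0.05), against 0.0293% of all probes.

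The newborn counts changed when newborn wild-type array 1 was left out. Gja1 measured -1.69, -1.63 and -1.97 in null and -0.93, -1.18 and -0.84 in heterozygous newborns, and 0.60, -0.95 and -1.09 in wild-type newborns, the 0.60 being array 1. The null change was -1.28 (adjusted p = 0.12) with that array and -0.74 ± 0.14 (adjusted p = 0.012) without it. Without it, 6 of the 105 genes were called in null against wild-type newborns, Cdh15 and Itgb2 (0.39) higher and Gja1, Krt1, Krt33a and Krt79 lower, while the share of all probes called rose to 7.06%. A second Itgb2 probe gave 0.06 there (adjusted p = 0.63), so that call depends on the probe. For heterozygous against wild-type newborns, 4 genes were then called lower, Itga5, Krt1 and Krt33a among them, against 6.42% of all probes. A second Itga5 probe gave -0.02 (adjusted p = 0.98). Krt33a, a hair keratin, measured 1.28 and 1.25 on wild-type arrays 2 and 3 and 0.36 on array 1, against -0.09 to 0.82 on the null and heterozygous arrays. The muscle markers also differed among the 3 wild-type arrays, with means of -0.60 on array 1, 0.93 on array 2 and 0.21 on array 3, and their part in these values was not tested.

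**Figure D4:**
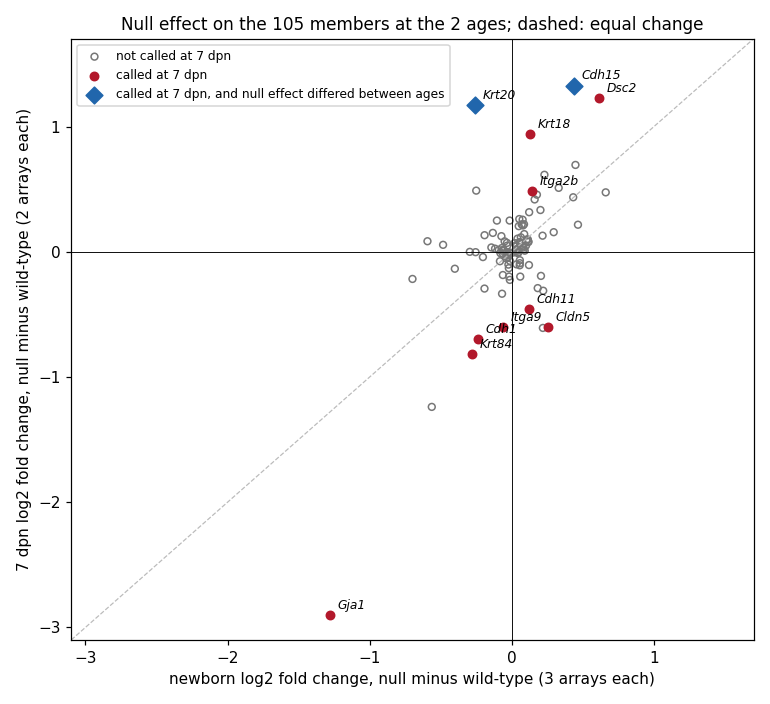
Log2 fold change of Foxl2-/- over wild-type ovaries in newborns (x axis, 3 arrays a group) and at 7 dpn (y axis, 2 arrays a group) for all 105 genes; filled points are the 11 genes called at 7 dpn and diamonds the 2 whose null effect differed between the ages. Krt20 lies at -0.26 in newborns and 1.17 at 7 dpn, and Cdh15 at 0.44 and 1.33.

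The null effect itself differed between the ages for 2 of the 105 genes by an interaction contrast, against 0.188% of all probes and 0.278% of all named genes. Cdh15 was raised in null ovaries at both ages, by 0.89 ± 0.13 more at 7 dpn (adjusted p = 0.032). Krt20 was -0.26 in null against wild-type newborns, where the call did not pass (adjusted p = 0.27), and 1.17 at 7 dpn, a difference of 1.43 ± 0.15 (adjusted p = 0.013). Without newborn wild-type array 1, 6 genes passed, against 3.2% of all probes. These were Cdh15 (0.97), Krt20 (1.44), Gja1 (-2.16, adjusted p = 0.0018), Krt18 (0.80, adjusted p = 0.0499), Krt84 (-0.60, adjusted p = 0.043) and Cldn2 (-0.54, adjusted p = 0.041). In that fit the second probes of Krt18 and Krt84 gave 0.67 (adjusted p = 0.35) and -0.19 (adjusted p = 0.31). The Krt20 difference was lost without 7 dpn null array 2. The Cdh15 difference was lost without any 1 of 7 arrays: newborn null 2 and 3, newborn wild-type 2 and 3, 7 dpn null 1 and 2, and 7 dpn wild-type 2, with values of 0.83 to 0.97 over all 10 such fits. With the ovary channel alone the Cdh15 difference was 0.40 (adjusted p = 0.93), and that of Krt20 was 1.63 (adjusted p = 0.23).

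In wild-type ovaries, 8 of the 105 genes differed between 7 dpn and birth, 5 higher and 3 lower, against 4.8% of all probes higher and 3.81% lower. In either direction these were 7.62% of the 105, below the 12.6% of all named genes. Gja1 rose most, 3.74-fold (1.90 ± 0.39, adjusted p = 0.014), from 0.60, -0.95 and -1.09 in newborns to 1.48 and 1.36. Without newborn wild-type array 1 its rise was 2.44 ± 0.15 (adjusted p = 2.6e-05). It was lost without newborn wild-type array 2 or either 7 dpn wild-type array, with values from 1.60 to 2.44 over the 5 fits. Cdh16, the kidney-type cadherin (1.07, adjusted p = 0.034), Cldn4, an epithelial claudin (0.94, adjusted p = 0.0068), Krt84 (0.48, adjusted p = 0.015) and Cdh11 (0.41, adjusted p = 0.037) rose as well. The second Krt84 probe gave 0.10 (adjusted p = 0.41), so this call too depends on the probe. Of the 10 granulosa markers 5 were higher and 0 lower at 7 dpn, Inhba (2.33) and Inha (1.76) among them, and the mean of the list was 0.72 to 1.31 in newborn and 1.64 to 1.94 in 7 dpn wild-type ovaries. Of the 5 theca and steroidogenic markers Cyp17a1 (0.99) and Cyp11a1 (2.34) rose, with list means of 0.56 to 1.18 and 1.54 to 2.13. Of 12 oocyte markers Bmp15 (1.19) and Oosp1 (1.53) rose and Kit fell (-0.66), and the mean over the 9 with a value on all arrays was 3.22 to 3.34 in newborn and 3.63 to 3.64 in 7 dpn wild-type ovaries. Among epithelial markers, Epcam was the only one called of the 5 tubal or mesonephric markers (-0.70), whose mean overlapped between the ages (0.25 to 0.45 and 0.26 to 0.57). Trp63 was the only one called of 4 keratinocyte markers (-0.996), and the mean over the other 3 overlapped as well (0.14 to 0.28 and 0.12 to 0.30). Of the remaining lists, 2 of 5 Sertoli markers were called, Dhh higher (1.84) and Fgf9 lower (-0.20), and 2 of 7 leukocyte, 1 of 5 endothelial and 1 of 5 muscle markers were higher. The part of these markers in the changes of Gja1 and the other 7 genes was not tested.

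Krt20 (-0.81 ± 0.11, adjusted p = 0.0027) and Krt18 (-0.76 ± 0.12, adjusted p = 0.0054) fell between birth and 7 dpn in wild-type ovaries and passed without any 1 array, and Gjd4 fell by 0.36 on the log2 scale (adjusted p = 0.034). Of the rises, that of Cldn4 and that of Krt84 were lost without 7 dpn wild-type array 1, that of Cdh11 without newborn wild-type array 2 or 3 or 7 dpn wild-type array 2, and that of Cdh16 without any array but newborn wild-type array 1. Gjd4 was lost without newborn wild-type array 3 or 7 dpn wild-type array 1, and passed under only 3 of 10 alternatives that kept every array, with changes from -0.51 to -0.08. Of these 10, Cldn4 passed under all, and Gja1, Krt20 and Krt18 under 9 each. Krt84 passed under 8, with a lowest change of 0.11, and Cdh16 and Cdh11 passed under 7 each. Without newborn wild-type array 1, 17 genes were called, the 8 among them, while 18.7% of all probes were called.

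The levels of the null 7 dpn ovaries can be set beside those of newborns. Krt18 lay at -1.73 and -1.65 in 7 dpn null ovaries, within -1.88 to -1.32 of all newborn arrays, while wild-type 7 dpn ovaries lay at -2.77 and -2.48. Gja1 lay at -1.38 and -1.59, within the newborn range of -1.97 to 0.60. Krt20, at -0.37 and -0.29, lay above all newborn arrays, which reached -0.44, and Cdh1, at 0.77 and 0.81, lay below all of them, the lowest being 1.23. Null ovaries of the 2 ages were not tested against each other.

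Of the 5 genes matched by name stem alone, none was called between null and wild-type at 7 dpn by limma, and 1 reached an unadjusted p under 0.05. Itgbl1, an integrin beta-like secreted protein, varied most of them. It measured 0.36 and 0.53 in 7 dpn null, 1.19 and 1.84 in heterozygous and 2.30 and 1.06 in wild-type ovaries, and the null arrays lay below the other 4 (-1.24, adjusted p = 0.20). In newborns it was 1.33 on wild-type array 1 and between -0.42 and -0.11 on the other 8 arrays.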

How the data were processed

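Two-colour Agilent mouse developmental arrays were read for 15 ovary samples (Cy3) against a universal mouse reference RNA (Cy5), with no dye swap. The authors deposited processed intensities that Agilent's Feature Extraction had background-subtracted and dye-balanced, per the file headers. The labels name an amplification kit, whereas the methods give no amplification at 7 dpn. The methods speak of 4 samples at 7 dpn, while 6 carry labels, and all 6 were used.

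Each deposited ovary intensity was divided by its reference intensity and put on the log2 scale. Control spots (2396 an array) and outlier spots (7 to 100) were dropped, spots of a probe averaged, and each array adjusted by loess (span 0.01) against the mean of all arrays. R 4.3.3 and limma 3.58.1 fitted the 6 group means on all 15 arrays, and p-values were adjusted by Benjamini-Hochberg over all probes (40995 to 41006), with a threshold of 0.05. Changes are log2 differences ± SE. Within-group correlations were 0.89 to 0.96, and 93.2 to 96.5% of probes were well above background. Precision is limited by the number of arrays.

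Genes were named through RefSeq accessions (15294 of 20657 RefSeq probes matched) and taken from the brightest probe. Genes named in the text were up to 12 called rises and 12 falls in the null, age and interaction comparisons, up to 6 each way in the others, a list with textbook roles, and dimer partners, with Itgbl1 and the genes called without newborn wild-type array 1 named after their values were seen. The members, marker lists, partner list and tests were chosen with earlier results of these data known. Of the marker and partner genes, only those with a named probe were measured. Promoters came from the RefSeq table, which held 65 of the 105 genes. The values of 1 gene are not reported here.

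Alternatives were normexp background correction, other normalizations, the ovary channel alone, the authors' series values as log2, a filter on dim probes, all probes of a gene averaged, the replicate block, fits within an age, a stricter threshold and each array left out.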

Additional observations from a re-analysis of the deposited data

Results flagged for a closer look

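The null effect differed between newborn and 7 dpn ovaries, by a test of the difference itself, for 2 junction genes. The Cdh15 effect was larger at 7 dpn by 0.89 on the log2 scale, a call that passed under 6 of 10 alternatives that kept every array, with values from 0.40 to 0.93, and in 3 of 10 fits with 1 array left out. The Krt20 effect was negative and not called in newborns and positive at 7 dpn, a difference of 1.43. That difference passed under 8 of the 10, with values from 0.91 to 1.63.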

How the results depend on the processing

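Of the 105 junction genes, the main setting called 11 (7 dpn null against wild-type), 7 (7 dpn null against heterozygous), 1 (newborn null against wild-type), 1 (newborn null against heterozygous), 8 (wild-type age) and 2 (null effect between ages), and 0 for heterozygous against wild-type at either age. Normexp gave 3 for each newborn null comparison. Median centring gave 7 and 4 for the 7 dpn null comparisons. The ovary channel alone gave 5 and 2 for these, 4 for age and 0 for the null effect, and turned the uncalled Gjc1 change to 0.019. The authors' series values gave 2 for newborn null against heterozygous and 14 for age. Fits within 1 age gave 7 and 3 at 7 dpn and 0 and 0 in newborns. At a threshold of 0.01 the counts were 6 and 2 at 7 dpn, 0 and 0 in newborns, 3 for age and 0 for the null effect. The local mean, the dim filter and the mean of all probes left every count within 1.5 times of the main one. At 7 dpn against wild-type, Gja1, Krt18 and Krt20 passed under all 11 alternatives that kept every array, whereas Dsc2 and Cdh1 passed under 8 each (Cdh1 at -0.25 with the ovary channel alone), Itga9 under 7, Cldn5 under 5 and Cdh11 under 4. Against heterozygous ovaries, Dsc2 and Krt18 passed under 7, and Cdh1 and Krt84 under 6. In newborns Cdh15 passed under 7 of the 11 against wild-type and 8 against heterozygous ovaries.

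With 1 array left out, which leaves 7 dpn groups with a lone sample assumed to vary like the others, the ranges were 7 to 10 and 2 to 3 for the 7 dpn null comparisons, 0 to 1 for 7 dpn heterozygous against wild-type, 0 to 6 and 0 to 1 for the newborn null comparisons, 0 to 4 for newborn heterozygous against wild-type, 3 to 17 for age and 0 to 6 for the null effect. The counts of 6, 4, 17 and 6 were those without newborn wild-type array 1. Cldn11, which was not called, ran from -0.091 to 0.96 and turned sign without 7 dpn wild-type array 2. The cause of these shifts was not tested.

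With the replicate block the counts were 11 and 5 at 7 dpn, 0 and 1 for the newborn null comparisons (Cdh15 against wild-type at an adjusted p of 0.055), 6 for age and 1 for the null effect. Same-numbered arrays correlated at -0.17 to 0.14 in newborns and -0.14 to -0.01 at 7 dpn. The best correlation was with the own number for 4 of 9 newborn and 0 of 6 7 dpn arrays. In newborns the other pairs ran from -0.18 to 0.21, so same-numbered arrays did not stand out. With 2 arrays a group at 7 dpn, deviations from a group mean mirror each other, so those values cannot decide whether the numbers pair the samples. A crossed pairing of the 7 dpn heterozygous arrays, chosen after seeing the data, gave 10 and 7 at 7 dpn, 1 and 1 in newborns, 7 for age and 1 for the null effect.

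The day of feature extraction as a block gave no value, since each age lies within 1 day, and fits within an age give none for age or the null effect. With 2 arrays a group at 7 dpn, a call missed is no evidence that levels were alike. The Foxl2 probe does not check the genotypes.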
